A study of Mus musculus with 6 samples.

Results

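Monocyte-attracting chemokines and their receptors were read in whole lung of mice lacking *Clec7a* and of wild-type mice after bleomycin. The set comprised 10 genes, taken by symbol from the 26100 rows of the count table by a rule that used no measured value. The choice was made with earlier results of these data known. All 10 genes passed the filter on low counts. They were the CCR2 axis (*Ccl2*, *Ccl7*, *Ccl8*, *Ccl12* and the receptor gene *Ccr2*), the CCR1 axis (*Ccl3*, *Ccl4* and *Ccr1*) and the CX3CR1 axis (*Cx3cl1* and *Cx3cr1*). The tested animals were 3 *Clec7a* knockout mice (KO) and the others 3 wild-type mice (WT). All 6 mice had received bleomycin by intratracheal injection, and lung was taken at day 14, so every value describes injured lung. The labels used here state no strain, sex, age or construction of the knockout allele, and untreated lung was not analysed here. The libraries held 31052936 to 34451956 counts each.

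Chemokines are small secreted proteins that guide leukocytes through G protein-coupled receptors. CCR2 marks classical monocytes and is needed for their release from bone marrow and entry into injured lung, where they become macrophages. CCR1 is carried by monocytes, macrophages and neutrophils. CX3CR1 is carried by non-classical monocytes, many tissue macrophages, some dendritic cells and cytotoxic lymphocytes, and its ligand is tethered to endothelial and epithelial membranes until proteases release it. *Clec7a* encodes dectin-1, a lectin receptor for beta-glucan on myeloid cells, which carry these chemokine receptors as well. Bleomycin damages DNA and is followed by scarring of the lung.

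*Clec7a* was at 3.60, 6.85 and 2.84 CPM (CPM being counts scaled to library size with TMM factors) in KO replicates 1, 2 and 3, against 60.6, 84.0 and 197 CPM in WT replicates 1, 2 and 3. Both first replicates lay away from the remaining 4 libraries. Spearman correlations over the tested genes were 0.924 to 0.947 for pairs of libraries that included a first replicate and 0.959 to 0.992 for pairs that did not. Mitochondrial transcripts took 7.34% of the counts in KO replicate 1 and 2.69% to 3.87% in the other 5 libraries. Lung markers of alveolar epithelium, airway and endothelium were read in every library, at unequal levels. The airway gene *Scgb1a1* was at 10243.5 CPM in WT replicate 1 and at 250 to 3618 CPM in the other libraries. The endothelial gene *Pecam1* was at 195 CPM in WT replicate 1 and at 400 to 841 CPM in the others. In whole tissue, fewer cells of a type and less RNA per cell cannot be told apart, which holds for each value below.

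The members lie in gene clusters. On GRCm38 (GENCODE M21), *Ccl2*, *Ccl7*, *Ccl12* and *Ccl8* occupy 81.2 kb of the plus strand of chromosome 11, with the eotaxin gene *Ccl11* between *Ccl7* and *Ccl12*. *Ccl2* runs from 82035571 to 82037453, *Ccl7* from 82045712 to 82047525, *Ccl12* from 82101845 to 82103400 and *Ccl8* from 82115185 to 82116799. *Ccl3* (minus strand, 83647844 to 83649355) and *Ccl4* (plus strand, 83662584 to 83664683) lie side by side farther along chromosome 11. On chromosome 9, *Ccr1* (minus strand, 123962124 to 123968692) and *Ccr2* (plus strand, 124101950 to 124113557) share a receptor cluster with *Ccr3*, and *Cx3cr1* (minus strand) extends from 119901616 to 120069879. *Cx3cl1* is on chromosome 8 (plus strand, 94772009 to 94782427). All 10 are annotated as protein coding, the 6 CC chemokine genes with 3 exons each. No run of 50 bases from the transcripts of *Ccl2*, *Ccl7*, *Ccl8*, *Ccl12*, *Ccl3*, *Ccl4*, *Ccr1* or *Cx3cl1* occurred in a transcript of another gene, while 1.09% of those of *Ccr2* and 0.662% of those of *Cx3cr1* did. The annotated gene on the opposite strand of *Ccl2*, *Gm17268*, had 0 counts in all 6 libraries, and the span of *Cx3cr1* overlaps *Wdr48*, *Gorasp1*, *Ttc21a*, *Csrnp1* and *Xirp1*, so reads could be divided there.

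Upstream sequence was taken from the RefSeq promoter table (GRCm38.p6), which matched 7 of the 10 members, *Ccl2*, *Ccl7* and *Ccl4* being the others. The 250 bases before the start are shown for *Ccl12*, *Ccl8* and *Ccr1*, the matched members with lower estimates in KO lungs, with the TATA box core TATAAA in capitals. *Ccl12* is chr11:82101595-82101844 on the plus strand, *Ccl8* is chr11:82114935-82115184 on the plus strand and *Ccr1* is chr9:123968693-123968942 on the minus strand, each printed 5′ to 3′ on the strand of the gene.
Ccl12: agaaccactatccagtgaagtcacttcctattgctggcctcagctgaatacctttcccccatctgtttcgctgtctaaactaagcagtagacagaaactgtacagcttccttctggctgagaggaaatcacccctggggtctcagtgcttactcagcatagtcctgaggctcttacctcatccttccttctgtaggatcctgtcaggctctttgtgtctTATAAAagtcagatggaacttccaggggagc
Ccl8: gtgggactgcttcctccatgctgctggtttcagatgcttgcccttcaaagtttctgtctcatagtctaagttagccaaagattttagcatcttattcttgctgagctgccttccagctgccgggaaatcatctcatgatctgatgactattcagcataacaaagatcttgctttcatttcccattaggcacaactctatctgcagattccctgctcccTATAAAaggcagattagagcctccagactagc
Ccr1: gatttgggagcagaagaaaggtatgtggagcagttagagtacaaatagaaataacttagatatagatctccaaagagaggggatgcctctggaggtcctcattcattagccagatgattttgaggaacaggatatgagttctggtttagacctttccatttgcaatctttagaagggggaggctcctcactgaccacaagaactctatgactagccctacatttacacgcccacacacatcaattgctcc

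The *Ccl12* and *Ccl8* windows each held TATAAA, beginning 31 and 32 bases before the start, and were identical at 55.6% of aligned positions. Their longest shared runs were of 8 bases, GGAAATCA among them. TATAAA, searched on both strands after the sequences were seen, occurred in 12.4% of all 32851 promoter windows of this length. Of the 7 matched members it was also in the window of *Cx3cl1*, which had a higher estimate in KO, beginning 6 bases before the start, and was absent from those of *Ccr1*, *Ccr2*, *Ccl3* and *Cx3cr1*. Starts here are those of the RefSeq promoters. For *Cx3cl1*, *Ccr2* and *Cx3cr1* they lie inside the GENCODE spans given above, so these windows fall partly or wholly within the annotated genes. The 4 other motifs searched on both strands were absent from the 7 matched windows. These were an NF-kB form (GGGA, any 2 bases, TTCC), another NF-kB form (GGG, any 2 bases, TTTCC), the AP-1 site TGANTCA and an interferon element (GAAA, any 2 bases, GAAA), found in 1.21%, 1.41%, 6.75% and 2.98% of all windows.

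The 4 genes grouped here as CCR2 ligands had lower estimates in KO lungs, of which DESeq2 called *Ccl2* alone and edgeR called 0. *Ccl2*, the principal ligand of CCR2, was at 20.7, 16.4 and 23.6 CPM in KO replicates 1, 2 and 3, against 78.8, 65.2 and 49.3 CPM in WT replicates 1, 2 and 3. The highest KO library was thus below the lowest WT library, and the spread within each genotype was smaller than the gap between the means. Means were 20.2 ± 3.63 CPM in KO and 64.4 ± 14.8 CPM in WT (SD, n = 3 each), with a level 3.18-fold higher in WT. The log2 fold change, which here always sets KO over WT, was -1.67 ± 0.25 (SE). The unadjusted p of edgeR's quasi-likelihood test was 3.41e-04 and its Benjamini-Hochberg adjusted p over all 16633 genes tested was 0.203. DESeq2 gave *Ccl2* an adjusted p of 1.35e-05. With each library left out in turn, DESeq2's adjusted p stayed between 2.06e-05 and 0.00615.

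*Ccl7*, a ligand of CCR2 that also acts on CCR1, was at 21.2, 9.91 and 14.0 CPM in KO replicates 1, 2 and 3, against 56.8, 30.2 and 26.0 CPM in the WT replicates. The groups did not overlap, and the first replicate was the highest in each genotype. Means were 15.01 ± 5.70 CPM in KO and 37.7 ± 16.7 CPM in WT (log2 fold change -1.33 ± 0.41). The edgeR adjusted p was 0.304 (unadjusted p 0.0151), and DESeq2 gave an adjusted p of 0.0714. *Ccl8* encodes a monocyte chemoattractant whose human counterpart acts on CCR2 and whose mouse protein is known chiefly as a CCR8 ligand. It was at 12.9, 18.5 and 12.4 CPM in KO replicates 1, 2 and 3, against 34.2, 20.3 and 25.2 CPM in the WT replicates, again without overlap, although KO replicate 2 lay close to WT replicate 2. Its log2 fold change was -0.86 ± 0.27 (edgeR unadjusted p 0.0174, adjusted p 0.313; DESeq2 adjusted p 0.142), and -0.55 without both first replicates.

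*Ccl12*, a rodent CCR2 ligand, was at 8.75, 4.08 and 3.55 CPM in KO replicates 1, 2 and 3, against 18.9, 8.15 and 6.83 CPM in the WT replicates. The groups overlapped, because KO replicate 1 lay above WT replicates 2 and 3. Its log2 fold change of -1.05 ± 0.54 (edgeR adjusted p 0.503) moved to -0.46 when WT replicate 1 was left out, and to -1.56 when KO replicate 1 was. Summed over the 4 ligand genes, the level was 63.5, 48.8 and 53.5 CPM in KO replicates 1, 2 and 3, against 189, 124 and 107 CPM in the WT replicates. There were 0.98, 1.65 and 1.69 *Ccl2* counts per *Ccl7* count in the KO replicates and 1.39, 2.16 and 1.90 in the WT replicates, with overlap. *Ccl2* counts per *Ccl8* count were 1.61, 0.886 and 1.90 in the KO replicates, against 2.30, 3.22 and 1.96 in the WT replicates, without overlap. For that ratio KO replicate 3 lay close to WT replicate 3, and the difference between genotypes was not tested.

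The receptor gene *Ccr2* had a higher estimate in KO, which passed no test. It was at 143, 181 and 78.1 CPM in KO replicates 1, 2 and 3, against 67.9, 92.6 and 122 CPM in the WT replicates, so the groups overlapped. Means were 134 ± 51.9 CPM in KO and 94.2 ± 27.2 CPM in WT, with a log2 fold change of 0.51 ± 0.36 (edgeR adjusted p 0.628; DESeq2 adjusted p 0.675). The estimate was 0.23 without KO replicate 2 and 0.78 without KO replicate 3. Within a library, where no scaling enters, there were 0.145, 0.0906 and 0.302 *Ccl2* counts per *Ccr2* count in the KO replicates, against 1.16, 0.704 and 0.403 in the WT replicates. Every KO library thus had fewer *Ccl2* counts per *Ccr2* count than any WT library. The same was seen for *Ccl7*, at 0.148, 0.0548 and 0.179 counts per *Ccr2* count in the KO replicates against 0.837, 0.326 and 0.213 in the WT replicates. These ratios compare counts of genes of different length and describe only the change between libraries. *Ccl2* and *Ccl7* were already without overlap at their own levels, so the lack of overlap in these ratios is no separate result.

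**Figure D1:**
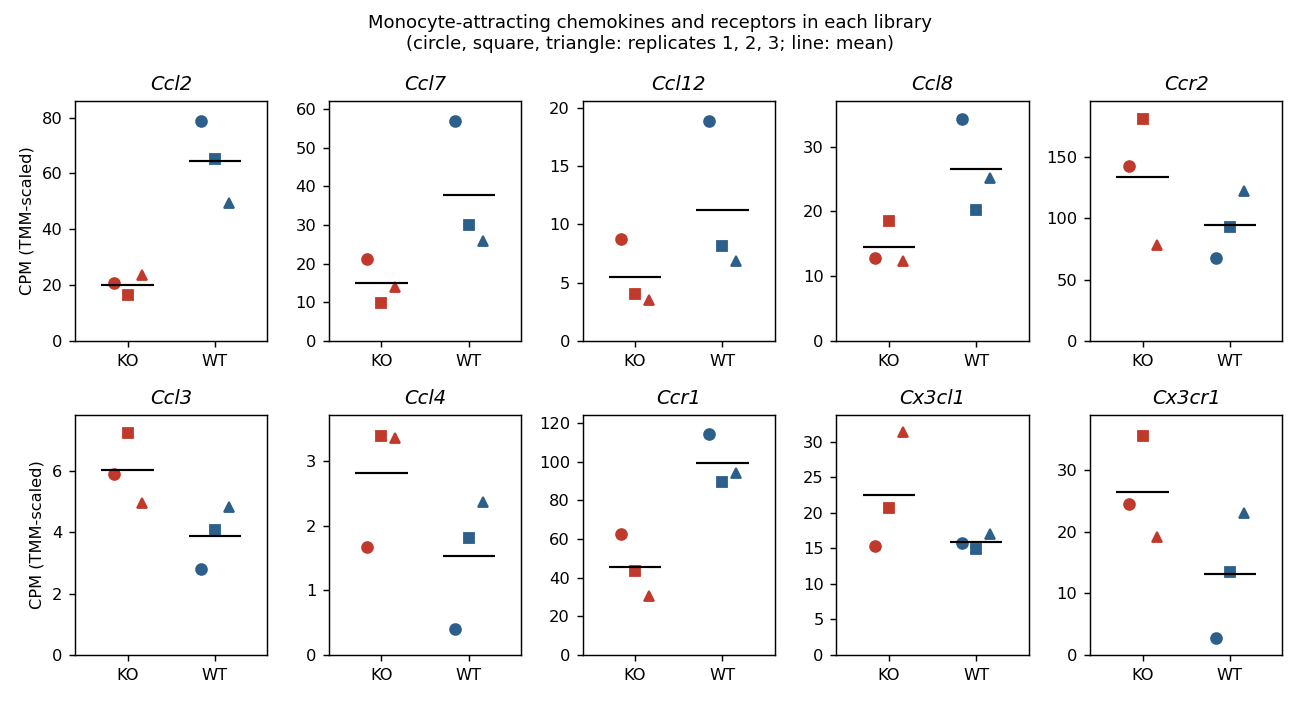
TMM-scaled CPM of the 10 members (y axis, linear from 0) in KO and WT lungs at day 14 after bleomycin; each point is 1 library and the line is the mean of 3. *Ccl2*, *Ccl7*, *Ccl8* and *Ccr1* have all KO points under all WT points, *Ccl3* has them above, and the other 5 overlap.

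The *Ccr1* estimate was lower in KO, called by DESeq2 and not by edgeR. Those of *Ccl3* and *Ccl4* were higher and passed no test. *Ccr1* was at 62.6, 43.4 and 30.7 CPM in KO replicates 1, 2 and 3, against 114, 89.5 and 94.0 CPM in the WT replicates. No KO library reached the lowest WT library. Means were 45.6 ± 16.1 CPM in KO and 99.2 ± 13.2 CPM in WT (log2 fold change -1.12 ± 0.29), with an edgeR unadjusted p of 0.00656 and an adjusted p of 0.260. DESeq2 called *Ccr1* with an adjusted p of 0.0367. That call was lost without KO replicate 2, KO replicate 3 or any 1 of the WT replicates (adjusted p 0.0825 to 0.223), and the adjusted p was 4.08e-04 without KO replicate 1.

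*Ccl3*, which encodes MIP-1 alpha, a ligand of CCR1, was at 5.91, 7.23 and 4.93 CPM in KO replicates 1, 2 and 3, against 2.79, 4.06 and 4.82 CPM in the WT replicates. The groups did not overlap, but KO replicate 3 and WT replicate 3 differed by little. Its log2 fold change was 0.63 ± 0.32 (edgeR unadjusted p 0.0951, adjusted p 0.504). *Ccl4*, which encodes MIP-1 beta, a leukocyte attractant, was at 1.67, 3.39 and 3.36 CPM in the KO replicates, against 0.399, 1.81 and 2.36 CPM in the WT replicates, with overlap. It rested on 53, 114 and 109 counts in the KO replicates and 13, 59 and 81 counts in the WT replicates. Its log2 fold change was 0.88 ± 0.67 (edgeR adjusted p 0.654), and 0.43 without WT replicate 1. *Ccl3* counts per *Ccr1* count were 0.0943, 0.167 and 0.161 in the KO replicates and 0.0245, 0.0454 and 0.0512 in the WT replicates. The lack of overlap follows from the levels of both genes given above and is no further result.

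In the CX3CR1 axis both genes had higher means in KO and groups that overlapped. *Cx3cr1* was at 24.6, 35.6 and 19.2 CPM in KO replicates 1, 2 and 3, against 2.76, 13.5 and 23.1 CPM in the WT replicates. WT replicate 1 was far below the other 5 libraries, and WT replicate 3 lay within the KO range. The log2 fold change was 1.01 ± 0.69 (edgeR adjusted p 0.611), and 0.53 without WT replicate 1 or 1.70 without WT replicate 3. *Cx3cl1*, the gene of fractalkine, was at 15.4, 20.7 and 31.4 CPM in the KO replicates, against 15.7, 14.97 and 17.0 CPM in the WT replicates. KO replicate 1 was level with the WT libraries and KO replicate 3 was the highest. Its log2 fold change of 0.50 ± 0.28 (edgeR adjusted p 0.540) was 0.19 without KO replicate 3.

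Levels can be compared between genes only per length, for which the authors' FPKM values (fragments scaled to transcript length and library size) were used. The KO columns of that table were taken as the KO libraries from the start of their names. They end in a suffix that the labels do not explain and were not matched to single libraries, so means and ranges over libraries are given. In KO lungs the mean FPKM levels ran from *Ccr2* (31.2 ± 13.8) through *Ccl8* (28.0 ± 6.92), *Ccl2* (24.4 ± 4.29), *Ccl7* (18.3 ± 6.55), *Ccr1* (15.7 ± 5.26), *Ccl12* (9.87 ± 4.98), *Ccl3* (7.70 ± 1.55), *Cx3cr1* (6.90 ± 2.24) and *Cx3cl1* (6.72 ± 2.53) to *Ccl4* (4.17 ± 1.53). Every neighbouring pair in that order had overlapping ranges. In WT lungs *Ccl2* stood first at 74.1 ± 14.3 FPKM, followed by *Ccl8* (48.5 ± 11.0), *Ccl7* (43.7 ± 17.4), *Ccr1* (32.8 ± 2.99), *Ccl12* (19.4 ± 10.5) and *Ccr2* (17.6 ± 5.67). Below them came *Ccl3* (4.80 ± 1.43), *Cx3cl1* (4.57 ± 0.48), *Cx3cr1* (3.32 ± 2.62) and *Ccl4* (2.19 ± 1.49). Among neighbours in the WT order, the ranges failed to overlap between *Ccr2* (12.1 to 23.4 FPKM) and *Ccl3* (3.26 to 6.08 FPKM). *Ccr2* had rank 1 in KO lungs and rank 6 in WT lungs, and *Ccl2* had rank 3 in KO lungs and rank 1 in WT lungs. The *Ccr2* ranges of KO (17.0 to 44.6 FPKM) and WT (12.1 to 23.4 FPKM) overlapped. Its log2 fold change was 0.74 from log2(FPKM + 1), larger than the 0.51 from counts, and neither passed a test.

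**Figure D2:**
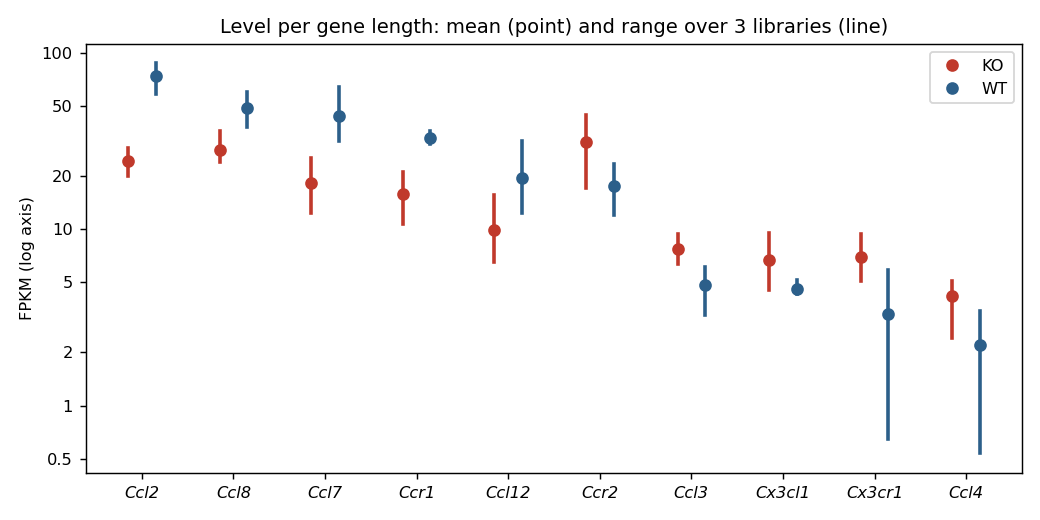
Deposited FPKM (y axis, log scale) of the 10 members, ordered by WT mean; points are means and lines the range over 3 libraries, KO left of WT. *Ccl2* is at 24.4 FPKM in KO and 74.1 FPKM in WT, while *Ccr2* is at 31.2 FPKM in KO and 17.6 FPKM in WT with overlapping ranges.

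Of the 10 members, 5 had lower and 5 had higher estimates in KO, with a median log2 fold change of -0.18 against -0.01 over all genes tested. edgeR called 0 members at an adjusted p under 0.05. It called 0% of all 16633 genes tested in each direction. limma-voom called 0 members as well. At an unadjusted p under 0.05 edgeR had 4 members lower (*Ccl2*, *Ccl7*, *Ccl8* and *Ccr1*), against a background of 5.89% of all genes lower, and 0 members higher, against 5.95% higher. DESeq2 called 2 members lower, *Ccl2* and *Ccr1*, where 1.67% of all genes were called lower, and 0 members higher, where 1.82% were (3.49% in either direction). The KO values lay below all WT values for 4 members, against 11.3% of all genes, and above them for 1 member, against 9.81%. A p that misses the threshold does not show that the genotypes were alike. The SEs ran from 0.25 to 0.69.

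**Figure D3:**
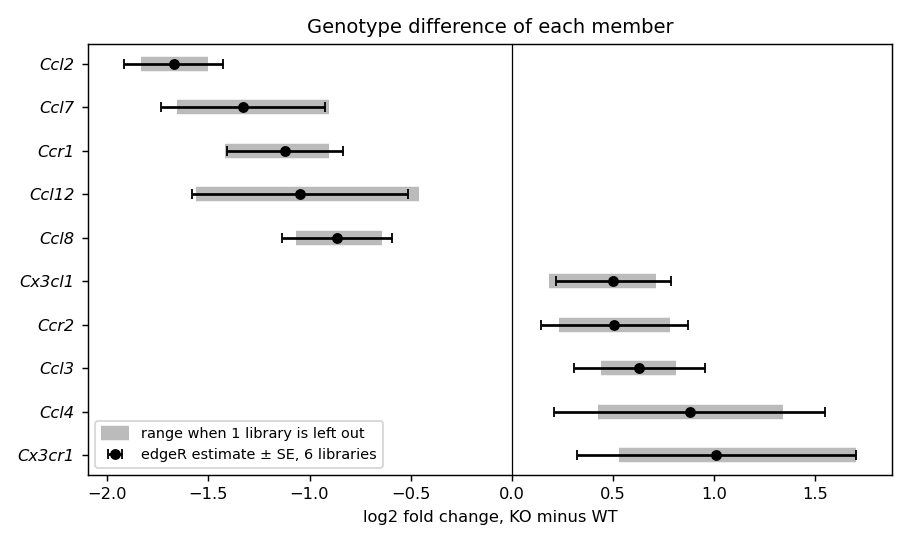
log2 fold change, KO minus WT (x axis), of each member with its edgeR SE (black) and the range of estimates when 1 library is left out (grey). The 5 members with lower estimates run from -1.67 for *Ccl2* to -0.86 for *Ccl8*, and no grey range crosses 0.

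Estimates were also read for neighbours within the clusters. *Ccl11*, which recruits eosinophils and lies between *Ccl7* and *Ccl12*, was at 2.84, 8.81 and 8.60 CPM in KO replicates 1, 2 and 3, against 5.47, 6.58 and 7.47 CPM in the WT replicates. Its groups overlapped, and its log2 fold change was 0.05 ± 0.46 (edgeR adjusted p 0.978). In the receptor cluster, where the estimates of *Ccr1* and *Ccr2* had opposite signs, the eosinophil receptor gene *Ccr3* averaged 1.33 ± 0.96 CPM in KO and 0.74 ± 0.83 CPM in WT (0.85 ± 0.91). *Ccr3* rested on 28, 82 and 22 counts in the KO replicates and 8, 9 and 58 counts in the WT replicates. Differences between neighbours were not tested.

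**Figure D4:**
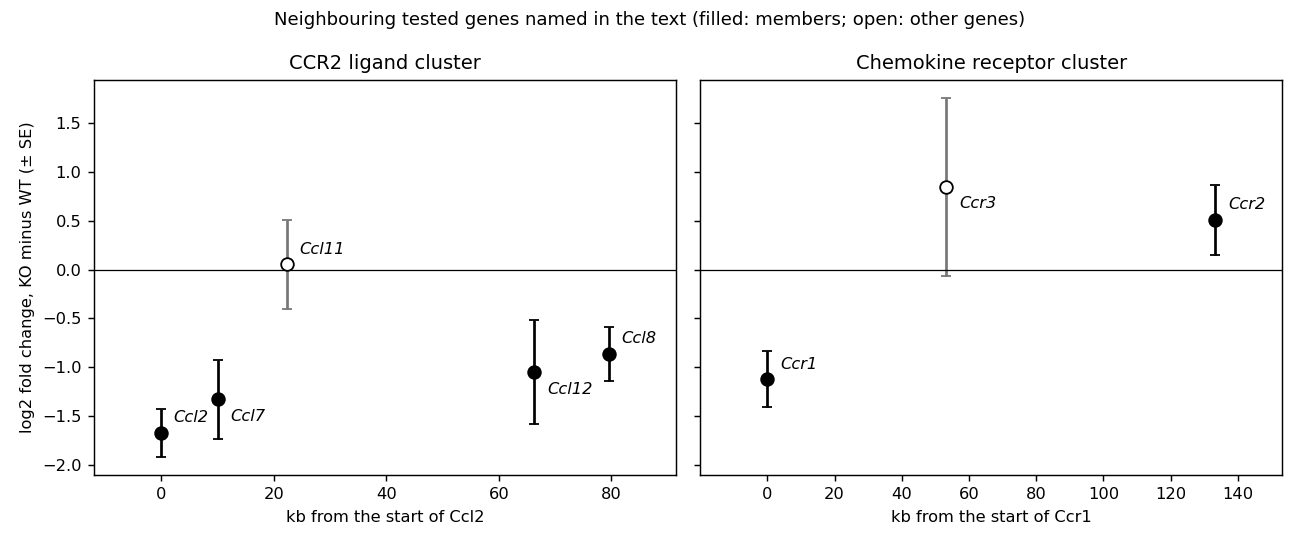
log2 fold change, KO minus WT (y axis, ± SE), of the tested genes named here in the CCR2 ligand cluster and the receptor cluster against distance in kb along the chromosome (x axis). In the ligand cluster *Ccl2*, *Ccl7*, *Ccl12* and *Ccl8* lie between -1.67 and -0.86 and *Ccl11* at 0.05; in the receptor cluster *Ccr1* lies at -1.12 and *Ccr2* at 0.51.

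Among the other CC chemokines, 13 of 14 were tested, 10 with higher and 3 with lower estimates and a median of 0.74. edgeR called 0 of them, with 3 higher and 1 lower at an unadjusted p under 0.05, and DESeq2 called 3 higher and 1 lower. *Ccl22*, a ligand of CCR4, averaged 43.5 ± 9.004 CPM in KO and 16.8 ± 8.08 CPM in WT (1.37 ± 0.37, DESeq2 adjusted p 0.0235). *Ccl19*, a ligand of CCR7, averaged 1.06 ± 0.13 CPM in KO and 0.24 ± 0.14 CPM in WT (2.12 ± 0.52, DESeq2 adjusted p 0.0286). The abundant CCR1 ligand genes *Ccl6* and *Ccl9* differed by about their error or less, at 0.74 ± 0.67 and -0.07 ± 0.37, and *Ccl6* reached 1628 CPM in KO replicate 1, against 281 to 630 CPM elsewhere. The other DESeq2 calls were *Ccl5* (1.204, higher), a ligand of CCR1, and *Ccl24* (-2.48, lower), a ligand of CCR3, both named after their values were seen.

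Among 13 other CC and atypical receptors, 10 had higher and 3 lower estimates, with a median of 0.85. edgeR called 0, with 4 higher and 1 lower at an unadjusted p under 0.05, and DESeq2 called 1 of each. *Ackr1*, an atypical receptor of venular endothelium and red cells that binds *Ccl2* and *Ccl7* without signalling, was at 4.45, 4.26 and 2.31 CPM in KO replicates 1, 2 and 3, against 11.7, 14.2 and 13.8 CPM in the WT replicates. Those groups did not overlap (-1.85 ± 0.32, edgeR unadjusted p 8.72e-04 and adjusted p 0.203, DESeq2 adjusted p 4.49e-05). The other DESeq2 call was *Ccr4*, a T cell receptor for *Ccl17* and *Ccl22*, at 1.63 ± 0.81 CPM in KO and 0.39 ± 0.20 CPM in WT (2.05 ± 0.59). *Ackr3*, a scavenging receptor of other chemokines, had -0.55 ± 0.44.

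Proteases that cut chemokines had 4 of 8 estimates higher and 4 lower (median -0.11), with 0 called by edgeR, 2 higher and 0 lower at an unadjusted p under 0.05, and 2 higher by DESeq2. These were *Dpp4*, a peptidase that trims chemokine ends (80.3 ± 16.1 CPM in KO and 27.9 ± 3.45 CPM in WT, 1.53 ± 0.21), and the macrophage elastase gene *Mmp12* (235 ± 201 CPM in KO and 38.6 ± 34.4 CPM in WT, 2.60 ± 0.88). *Ctss*, a cathepsin able to release fractalkine, had 0.01 ± 0.39, and *Mmp2*, which truncates *Ccl7*, had -0.38 ± 0.62. The fractalkine sheddase genes *Adam10* and *Adam17* had -0.23 and 0.38, both outside the rule for named genes. Of 17 genes of receptor signalling, 10 had higher and 7 lower estimates (median 0.04), 0 called by edgeR or DESeq2 and 1 higher and 0 lower at an unadjusted p under 0.05, the phospholipase gene *Plcb2* (33.9 ± 7.80 CPM in KO and 13.8 ± 7.44 CPM in WT, 1.295 ± 0.45). The abundant G protein gene *Gnai2* and the GTPase gene *Cdc42* had 0.06 ± 0.24 and 0.04 ± 0.25, and *Nup85*, whose product binds CCR2, had -0.26 ± 0.18.

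Genes that induce these ligands had 12 of 19 tested estimates higher and 7 lower (median 0.21), with *Ifng* below the count filter. edgeR called 0, with 1 higher and 0 lower at an unadjusted p under 0.05, and DESeq2 called 1 higher. *Irf1*, an interferon-induced transcription factor gene, had 0.72 ± 0.30 (edgeR adjusted p 0.431). The inflammatory cytokine genes *Tnf* (0.21), *Il1b* (0.13) and *Il6* (-0.26), outside the rule for named genes and given for their known role, had DESeq2 adjusted p of 0.945 to 0.968. The AP-1 genes *Jun* (0.78 ± 0.95) and *Fos* (0.27 ± 1.21) were far lower in both first replicates than in the other libraries. *Fos* was at 30.9 CPM in KO replicate 1 and 71.9 CPM in WT replicate 1.

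Marker lists of cells that carry or make these molecules had estimates in different directions. All 10 interstitial macrophage markers had lower estimates in KO (median -0.89), 8 without overlap, 6 at an unadjusted edgeR p under 0.05 and 4 called by DESeq2. Their summed level was 1113 to 1534 CPM in KO and 2071 to 2275 CPM in WT, so the groups were apart. *Cd163*, the haemoglobin scavenger receptor, was at 12.1 ± 8.35 CPM in KO and 86.5 ± 17.9 CPM in WT (-2.83 ± 0.61), and the folate receptor gene *Folr2* had -1.40 ± 0.31. The complement gene *C1qb* and the hyaluronan receptor gene *Lyve1*, had -0.60 ± 0.31 and -0.85 ± 0.34. In the scar-associated macrophage list 4 of 7 were lower (median -0.68, summed level 1874 to 5496 CPM in KO and 6763 to 8780 CPM in WT), with 1 called by DESeq2, *Arg1*, the arginase gene, at 35.01 ± 27.6 CPM in KO and 648 ± 190 CPM in WT. *Spp1*, the gene of osteopontin, had -1.38 ± 0.49 and the tetraspanin gene *Cd9* had 0.14 ± 0.35. Their part in the lower ligand levels was not tested.

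Monocyte markers other than the members were mixed. Of 10 classical monocyte genes, 7 were lower and 3 higher (median -0.34, summed level 1079 to 1844 CPM in KO and 2095 to 3266 CPM in WT), and DESeq2 called 2 lower and 1 higher. *F13a1*, the factor XIII A chain, averaged 66.7 ± 14.8 CPM in KO and 399 ± 99.97 CPM in WT (-2.58 ± 0.29), and *S100a4*, a calcium-binding protein gene, had -1.90 ± 0.35. The chitinase-like gene *Chil3* (-1.17 ± 0.54) and the haptoglobin gene *Hp* (-0.50 ± 0.46) were abundant and overlapped, while the higher gene was *Ms4a4c* (1.59), named after its value was seen. *Ly6c2*, the defining surface marker of classical monocytes, was at 24.7, 17.9 and 20.4 CPM in KO replicates 1, 2 and 3, against 26.2, 22.0 and 20.95 CPM in the WT replicates (-0.14). Of 8 non-classical genes, 7 were higher (median 0.56, summed level 544 to 2304 CPM in KO and 697 to 2552 CPM in WT), with 0 called by DESeq2 and 2 higher at an unadjusted edgeR p under 0.05. These were *Itgal* (1.15 ± 0.44) and *Spn* (0.57 ± 0.23), leukocyte adhesion genes, while *Ace* (-0.30 ± 0.63) and *Nr4a1* (0.09 ± 1.24) overlapped. *Ace* alone, at 396 to 1580 CPM in KO and 630 to 1943 CPM in WT, made up most of the summed level in every library. That sum therefore says little about the less abundant genes of the list. All KO libraries lay above all WT libraries for 4 of the 8 genes, and the rest overlapped.

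Alveolar macrophage markers had 7 of 10 higher (median 0.90, summed level 257 to 881 CPM in KO and 280 to 300 CPM in WT), 3 of them called by DESeq2. Averaged over the list, log2 CPM centred on the mean of the 6 libraries was 1.37 in KO replicate 1. It was -0.24 and -0.35 in KO replicates 2 and 3, within the WT span of -0.45 to -0.06. The list as a whole was thus high in KO replicate 1 alone. *Car4* (1.19 ± 0.27) and *Krt79* (2.21 ± 0.68) had the smallest p, and the abundant *Atp6v0d2*, a proton pump gene (1.23 ± 0.58), and *Marco*, a scavenger receptor gene (-0.31 ± 1.03), overlapped. All 14 NK and T cell genes were higher and without overlap (median 1.63, 9 called by DESeq2, summed level 62.6 to 88.3 CPM in KO and 14.9 to 33.1 CPM in WT), and 7 of 8 dendritic cell genes were higher (median 1.67, 4 called by DESeq2, summed level 117 to 227 CPM in KO and 69.4 to 88.9 CPM in WT). Examples were the granule gene *Nkg7* (1.97), *Cd3g* of the T cell receptor complex (2.00), the coreceptor gene *Cd4* (1.26), the kinase gene *Lck* (1.43), the chemokine receptor gene *Xcr1* (2.94), the lectin gene *Mgl2* (2.33) and the transcription factor gene *Zbtb46* (0.75). The dendritic cell gene with a lower estimate was the lectin gene *Clec10a*, named after its value was seen. It had -1.22 ± 0.49 without overlap (edgeR unadjusted p 0.0438, DESeq2 adjusted p 0.208). *Ncr1* had no counts in a WT library. NK and T cells are known sources of *Ccl3* and *Ccl4*, and some carry *Cx3cr1*. Their part in those values was not tested.

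Neutrophils carry CCR1, and 7 of their 9 tested markers were lower (median -0.64, summed level 146 to 200 CPM in KO and 211 to 291 CPM in WT), with the chemokine receptor gene *Cxcr2* (-1.15 ± 0.24) the 1 called by DESeq2, *Csf3r* at -1.03 ± 0.34, *S100a9* at -0.44 ± 0.47 and *Ly6g* below the count filter. Endothelial markers, from cells that can make fractalkine, had 5 of 6 higher (median 0.37, 0 called, summed level 1613 to 3494 CPM in KO and 995 to 3399 CPM in WT), with *Kdr* (1.01 ± 0.52), *Pecam1* (0.41 ± 0.52), *Cldn5* (0.34 ± 0.28) and *Vwf* (-0.38 ± 0.56). Alveolar epithelial markers had 10 of 10 higher (median 0.67, 2 called by DESeq2, summed level 3787 to 21336 CPM in KO and 2177 to 11969 CPM in WT), with *Lamp3* (2.44 ± 0.60), *Rtkn2* (2.39 ± 0.72), *Sftpc* (1.41 ± 0.94) and *Sftpb* (0.10 ± 0.80). Airway markers had 3 of 6 higher (median -0.12, 0 called, summed level 1548 to 4082 CPM in KO and 326 to 11484 CPM in WT), with *Scgb1a1* (-0.73 ± 1.26), *Scgb3a2* (0.18 ± 1.29) and *Bpifa1* (-0.99 ± 1.58). Fibroblast markers, from cells that can make *Ccl2*, had 5 of 6 lower (median -0.48, 1 called by DESeq2, which was higher, summed level 1719 to 9356 CPM in KO and 3550 to 13880 CPM in WT). They included *Col1a1* (-1.27 ± 1.04), *Col3a1* (-0.66 ± 0.66), *Dcn* (-0.64 ± 0.34) and *Tcf21* (1.299 ± 0.21). edgeR called 0 genes of any marker list, and the part of these cells in the members' values was not tested.

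**Figure D5:**
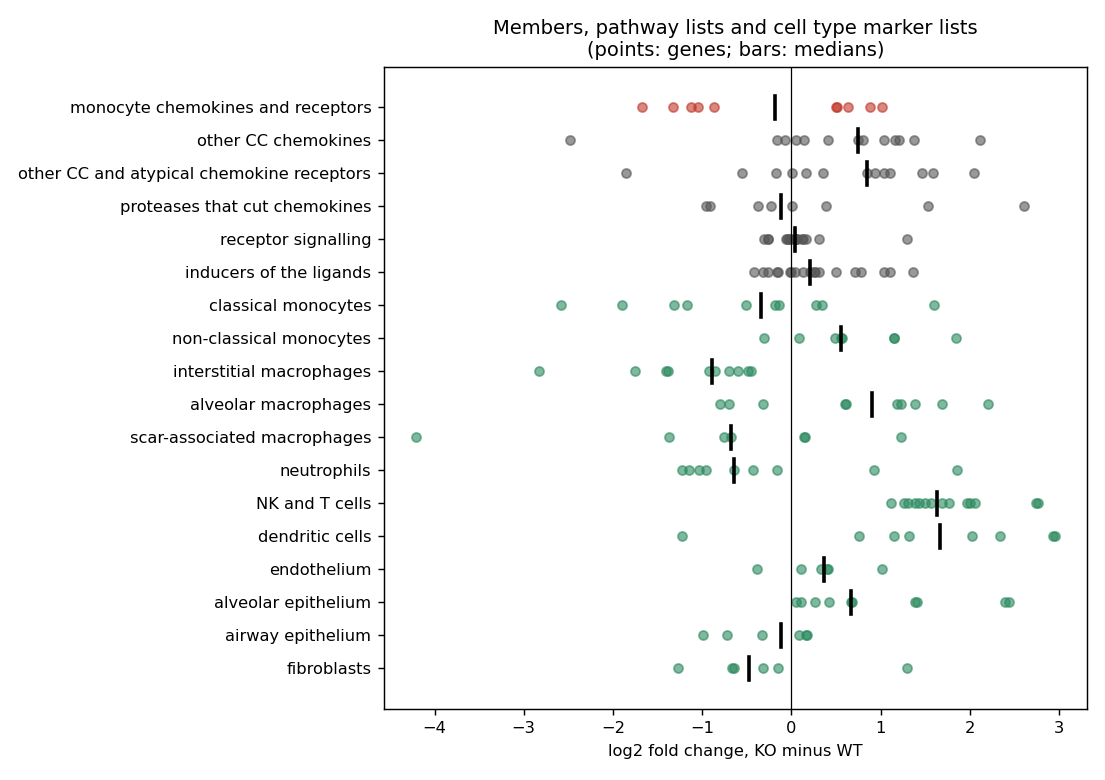
log2 fold change, KO minus WT (x axis), of single genes (points) with list medians (bars) for the 10 members (red), pathway lists (grey) and marker lists (green). The members split into 5 lower and 5 higher; the interstitial macrophage median is -0.89 and the NK and T cell median 1.63.

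Genes whose pattern over the 6 libraries was nearest to a member were found by the root-mean-square difference of log2 CPM centred on the mean of the 6 libraries. The pool was 11663 tested genes of at least 5 mean CPM, leaving out predicted gene models, clone names and new genes. Nearest to *Ccl2* were the cold-inducible gene *Cirbp* (0.15 log2 units), *Fkbp11*, a prolyl isomerase gene (0.21), and the glycosyltransferase gene *Galnt15* (0.23). *Cirbp* was at 25.0, 17.9 and 22.4 CPM in KO replicates 1, 2 and 3, against 86.0, 65.7 and 64.5 CPM in the WT replicates. Its highest KO library was below its lowest WT library, which the choice by likeness to *Ccl2* made likely and which is no separate result. Nearest to *Ccr2* were *Rassf4* (0.089), the interleukin-1 receptor antagonist gene *Il1rn* (0.10) and the lectin receptor gene *Clec4a3* (0.11). *Il1rn* was at 51.3, 59.9 and 24.7 CPM in the KO replicates, against 23.2, 27.7 and 44.9 CPM in the WT replicates. Nearest to *Cx3cr1* were *Rasgrp1* (0.27), the GTPase gene *Gbp4* (0.27) and the cytokine receptor gene *Il27ra* (0.32).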

How the data were processed

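RNA of whole lung from 3 KO and 3 WT mice was sequenced after TRIzol extraction and library preparation with an NEBNext Ultra kit, per the labels' protocols. The authors deposited read counts per gene as whole numbers without normalization, and a second table of FPKM values for the same genes. The submitters' processing notes list the genome build GRCm38 and the tools HISAT2 2.0.4 and StringTie 1.3.4d, with no role for any. For strand setting, annotation release and shared reads, the entry is: not given in the sources used here. Separate mice are stated for the libraries.

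Genes were kept with filterByExpr (16633 of 26100 rows), scaled by TMM and tested 2-sided with edgeR 4.0.16 (R 4.3.3, robust quasi-likelihood, genotype as the only term). Adjusted p-values are Benjamini-Hochberg over all genes tested, with a threshold of 0.05. Dividing the size of a log2 fold change by the root of its F statistic gave the SE. Alternatives were DESeq2 1.42.0, limma 3.58.1 (voom, and log2(FPKM + 1) or log2(FPKM + 0.1), which understate low genes), other scalings and filters, a replicate block and libraries left out. The scripts were tested on simulated data. The members, gene lists and the libraries left out together were chosen with earlier results of these data known. Each list names its 2 genes of smallest edgeR p and its 2 of highest mean CPM, unless stated otherwise. Some genes of the pathway lists enter their counts and medians and are not reported here by name.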

Additional observations from a re-analysis of the deposited data

How the results depend on the processing

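Each member's log2 fold change kept its sign in all alternatives run, including the newer quasi-likelihood fit of edgeR, which was added after seeing the data. DESeq2 called 667 genes, against 0 in edgeR (1968 genes at an unadjusted p under 0.05, 11.8%), and put *Ccl2* (-1.66) and *Ccr1* (-1.11) past the threshold. The number of genes called by edgeR was 0 to 3 with 1 library left out and 46 with both first replicates left out, when *Ccl2*, *Ccl7* and *Ccr1* had adjusted p of 0.0632, 0.0636 and 0.0617. In that setting *Ccl8* was at -0.55 (adjusted p 0.195), *Ccr2* at 0.28 (0.687) and *Cx3cr1* at 0.59 (0.368), each over 1.5 times nearer to 0 than with all libraries, and *Ccl12*, *Ccl3*, *Ccl4* and *Cx3cl1* had adjusted p of 0.0815 to 0.320. The cause of these shifts was not tested. Deviations of same-numbered libraries from their genotype means correlated at 0.351, 0.350 and -0.0988. KO replicate 1 was nearest to WT replicate 1, while KO replicate 2 was nearer to WT replicate 3 (0.468). With 3 mice a group these correlations cannot decide whether the replicate numbers pair the samples. With the replicate block edgeR called 0 genes (smallest adjusted p 0.118), and *Ccl2*, *Ccl7*, *Ccl12* and *Ccr1* had log2 fold changes of -1.66, -1.31, -1.02 and -1.17. Their edgeR unadjusted p in that fit were 0.001337, 0.001311, 0.005332 and 0.001891 (adjusted p 0.1315 to 0.1511). The precision is limited by 3 mice a group, and *Ccl4* had as few as 13 counts in a library.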

Other observations

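The first replicates, which stood apart from the other libraries, had members in common that were extreme within both genotypes. *Ccl7*, *Ccl12* and *Ccr1* were highest in replicate 1 of KO (21.2, 8.75 and 62.6 CPM) and in replicate 1 of WT (56.8, 18.9 and 114 CPM). *Ccl4* was lowest in both, at 1.67 CPM in KO replicate 1 and 0.399 CPM in WT replicate 1. *Cx3cr1* was lowest of all 6 libraries in WT replicate 1 at 2.76 CPM and not in KO replicate 1, at 24.6 CPM, where it was between the other KO libraries. *Ccr2* made the same split, at 143 CPM in KO replicate 1 and 67.9 CPM in WT replicate 1, the lowest of the 6. There were 0.172, 0.197 and 0.246 *Cx3cr1* counts per *Ccr2* count in KO replicates 1, 2 and 3, and 0.0407, 0.146 and 0.189 in the WT replicates.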
